A study of Mus musculus with 8 samples.

Results

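Mouse lung adenocarcinoma cells in which the transcription factors Nkx2-1, Foxa2 and Cdx2 were targeted together by shRNA were compared with the same kind of cells carrying a control shRNA, over every gene of the deposited table. The comparison takes in 4 of the 8 libraries of the series, 2 of the triple knockdown and 2 of the control (shControl), and 13318 of the 23224 listed genes had enough counts to be tested. Both groups are Tnonmet lines, derived from a non-metastatic primary tumour, and both are labelled Trp53-/-, so the loss of Trp53 is shared by control and knockdown. The control shRNA is aimed at luciferase, retroviral and lentiviral vectors delivered the shRNAs, and the medium was DMEM with 10% fetal bovine serum. The labels do not say whether the infected cells were pools or clones, nor which vector carried which shRNA. An Nkx2-1 shRNA alone in Tnonmet cells (shNkx2-1, 2 libraries, same genotype and medium) is used below to show where the triple knockdown differs from it, and lines of a metastasised primary tumour (Tmet, 2 libraries, same genotype, no shRNA named) entered the fit, where they bear on the estimate of the spread and on which genes had enough counts to be tested (12727 without them, and 49 of the 13318 have no counts in the compared groups). The series title puts the question of whether Foxa2 and Cdx2 act with Nkx2-1 against metastasis.

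Nkx2-1 is the homeobox factor that sets lung identity, Foxa2 is a forkhead factor that opens chromatin in endoderm-derived tissues, and Cdx2 is the homeobox factor of the intestine. In lung adenocarcinoma, tumours that lose Nkx2-1 are known to take up genes of the stomach and gut, with Foxa factors and Hnf4a at work there. Markers of such foregut and hindgut tissues, brush border genes and liver-type enzymes are therefore the first genes described below.

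Total estimated counts were 14496995 and 18918538 for shControl and 16830021 and 15953814 for the triple knockdown, and the duplicates correlated at 0.996 and 0.995 on the log2 scale across genes, which are not independent replicates. Levels are in CPM, counts scaled to a common library size, with TMM factors, and are given as replicate 1 and then replicate 2. Changes are log2 values with the standard error of the fit, and the adjusted p-value is that of edgeR's quasi-likelihood test over all tested genes. Nothing says that the duplicates were separate cultures, so these p-values measure a spread between libraries that may be technical. Genes named as called were picked for groups that do not overlap, which holds in either direction for 72.4% of all tested genes. CPM are not divided by gene length, so levels are compared between groups and not between genes.

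The targeted genes differed in how far they were lowered. Cdx2 went from 98.6 and 111 CPM in shControl to 9.41 and 6.795 CPM in the triple knockdown (log2 change -3.69 ± 0.17, adjusted p = 1.59e-05). Nkx2-1 stood at 76.4 and 68.03 CPM and then at 38.1 and 34.04 CPM (-1.001 ± 0.15, adjusted p = 0.00273), and Foxa2 at 56.8 and 55.1 CPM and then at 34.1 and 28.2 CPM (-0.84 ± 0.15, adjusted p = 0.00519). For each of the 3 genes both knockdown libraries were below both control libraries. Cdx2 was left at 7.74% of its control level, Nkx2-1 at 49.9% and Foxa2 at 55.7%. The Foxa2 call was lost without triple knockdown replicate 2 (adjusted p = 0.0578). Foxa1, the close relative of Foxa2 for which no shRNA is named, fell from 98.9 and 100.1 CPM to 33.9 and 31.1 CPM (-1.61 ± 0.13, adjusted p = 0.000162). Foxa3 stayed under 1 CPM in all 4 libraries, with 4 counts over shControl and 20 over the triple knockdown, and was called higher (2.36 ± 0.63, adjusted p = 0.0359). That call was lost by DESeq2 (adjusted p = 0.304), without the filter on low counts, under the replicate block and in each fit without 1 Tnonmet library. Cdx1 had no counts in either group.

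Other transcription factors of gut and liver endoderm fell in part. Across all genes tested, 12% were called higher and 12.4% lower at an adjusted p of 0.05, and in the list of endoderm factors 9 of 25 tested genes were lower and 4 higher. Hnf4g, a nuclear receptor of the intestinal lining, fell from 23.1 and 18.1 CPM to 0.904 and 1.03 CPM (-4.41 ± 0.40, adjusted p = 0.000287), while its relative Hnf4a fell less, from 315 and 281 CPM to 138 and 118 CPM (-1.22 ± 0.14, adjusted p = 0.000898). Nr1i2, the pregnane X receptor that senses foreign compounds, went from 7.802 and 6.25 CPM to 0.121 and 0.192 CPM (-5.43 ± 0.45, adjusted p = 0.000347). Nr1i2 was close to the floor of 3 counts (0.181 and 0.192 CPM) in the knockdown. Onecut2, a cut-homeobox factor of liver and gut, fell from 761 and 636 CPM to 148 and 132 CPM (-2.32 ± 0.19, adjusted p = 0.000181), whereas Onecut3 rose from 1.801 and 4.08 CPM to 21.8 and 21.4 CPM (2.85 ± 0.35, adjusted p = 0.00117). Cebpa, a leucine zipper factor of liver and alveolar type 2 cells, fell from 8.34 and 11.1 CPM to 0.724 and 0.897 CPM (-3.58 ± 0.38, adjusted p = 0.000558). The network was not lowered as a whole: Gata6 stood at 57.2 and 57.5 CPM and 44.7 and 44.7 CPM, and Klf5 at 106 and 90.3 CPM and 108 and 109 CPM, neither of them past the threshold. Over the 8 fits that each left out 1 library, 5 to 11 of these factors were called lower and 2 to 4 higher.

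**Figure D1:**
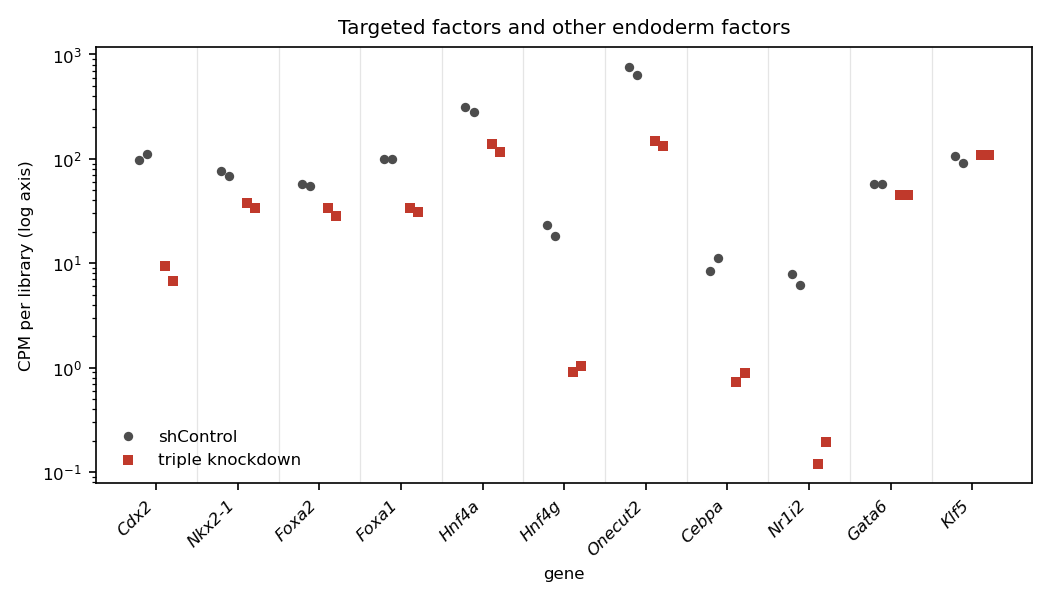
CPM in each library (vertical log axis) of the targeted genes and 8 other endoderm factors (horizontal axis) in shControl (circles) and the triple knockdown (squares), 1 point per library. Both squares lie below both circles from Cdx2 to Nr1i2, while Gata6 and Klf5, at the right, were not called.

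In all, 3243 genes passed the threshold, 1597 higher and 1646 lower, or 24.4% of those tested. Changes over 2-fold made up 801 of the calls higher and 865 of the calls lower, and 115 and 160 were over 16-fold on the fitted scale. The median change over all tested genes was 0.00 on the log2 scale, and the median of the called genes was 1.00 for those higher and -1.05 for those lower. Calls were spread over all levels of expression: in 5 equal bins of the tested genes by mean CPM, 9.53% to 17.4% were higher and 9.68% to 13.7% lower, with the share higher greatest in the most abundant bin. Of the called genes, 29 of those higher had no counts in shControl and 37 of those lower had none in the triple knockdown. The number of calls depends on the libraries that set the spread: it was between 1248 and 1576 without any 1 of the 4 compared libraries and 5453 or 5459 without either Tmet library. Gene counts within lists move with it, and ranges over these 8 fits are given in brackets after them.

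**Figure D2:**
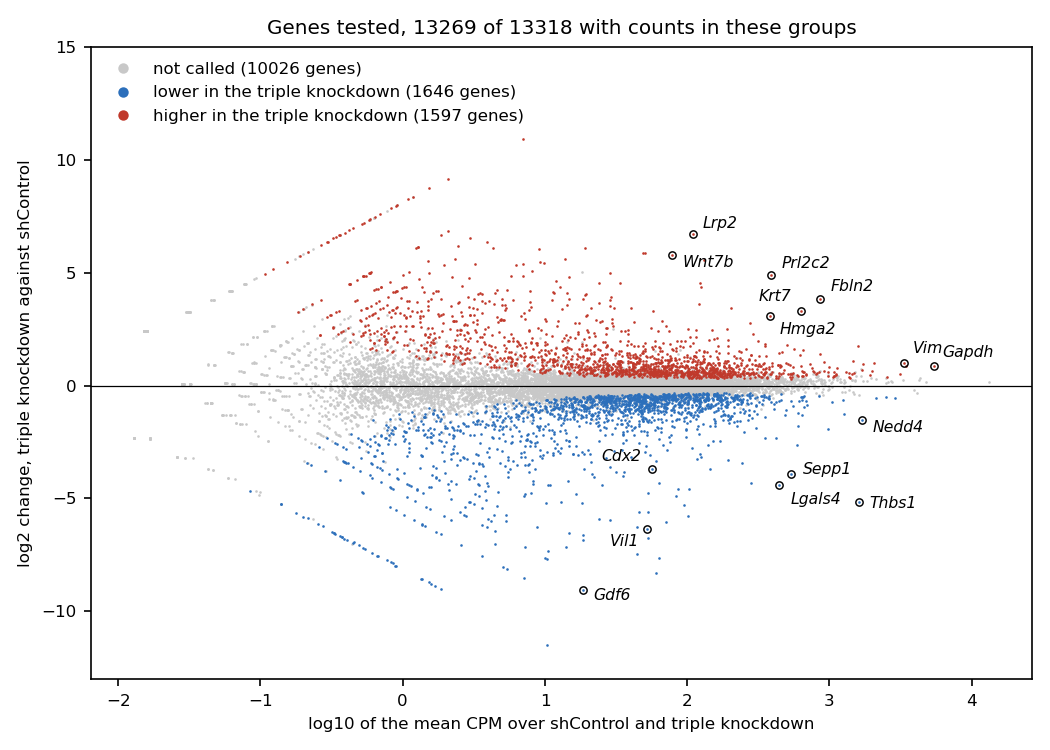
Log2 change of the triple knockdown against shControl (vertical axis) by the log10 of the mean CPM over both groups (horizontal axis) for the 13269 tested genes with counts in these groups, with 1597 called higher in red and 1646 called lower in blue. Circled genes are named in the text; the straight edges at the left are genes with no counts in 1 group, whose fitted change depends on a prior count.

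Among genes with a symbol other than a clone name, the 5 falls with the smallest p-values were those of Myo7b, Lgals4, Cyp2c65, Cdhr5 and Tmigd1, which are known from the epithelium of gut or kidney. Lgals4, a galectin of gut epithelium, stood at 865 and 811 CPM in shControl and 40.6 and 38.4 CPM in the triple knockdown (-4.41 ± 0.12, adjusted p = 1.67e-06). Myo7b, the myosin that ties together the tips of microvilli, stood at 202 and 195 CPM and 8.68 and 7.76 CPM (-4.59 ± 0.12, adjusted p = 1.67e-06). Cdhr5, its cadherin partner between microvilli, stood at 196 and 175 CPM and 4.28 and 5.32 CPM (-5.27 ± 0.17, adjusted p = 3.25e-06). In these 3 genes the duplicates lay close together. Tmigd1, an adhesion molecule of kidney and gut epithelium, fell from 146 and 134 CPM to 2.17 and 2.05 CPM (-6.05 ± 0.21, adjusted p = 4.87e-06). Vil1, the villin that bundles actin in microvilli, fell from 118 and 88.3 CPM to 1.39 and 1.09 CPM (-6.37 ± 0.23, adjusted p = 5.29e-06). Lgals6, a near-identical copy of Lgals4, fell alongside (555 and 508 CPM to 27.7 and 26.2 CPM, -4.30 ± 0.20), and the split of reads between the copies is uncertain.

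The promoters below are those of Lgals4, Cdhr5 and Tmigd1, from the brush border and gut lists, and of Lrp2 and Wnt7a. Lgals4, Cdhr5 and Tmigd1 had the smallest p in those lists apart from Myo7b, which had a smaller p. Myo7b was left out, which does not mean that it lacks an entry in the RefSeq promoter table. Lrp2 and Wnt7a are the 2 genes with the largest rises that have an entry. The promoters are shown so that the sequence upstream of strong responders in each direction can be read against the 3 targeted factors. Each runs 5′ to 3′ on the gene's strand from 250 bases before the transcription start to 50 after it, from RefSeq on GRCm38.p6. Capitals mark a match, on either strand, to any of 4 short motifs, namely TTTATNG (CDX2-like), TGTTTAC (forkhead), CACTTGA (NKX2-1-like) and CAAAGTNCA (HNF4A-like).
Lgals4, GRCm38.p6 chr7:28833544-28833843, + strand: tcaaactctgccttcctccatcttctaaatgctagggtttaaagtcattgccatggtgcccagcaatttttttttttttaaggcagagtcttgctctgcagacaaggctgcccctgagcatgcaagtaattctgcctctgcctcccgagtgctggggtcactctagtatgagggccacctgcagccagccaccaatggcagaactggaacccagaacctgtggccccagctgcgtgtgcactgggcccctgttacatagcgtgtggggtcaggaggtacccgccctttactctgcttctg
Cdhr5, GRCm38.p6 chr7:141276737-141277036, - strand: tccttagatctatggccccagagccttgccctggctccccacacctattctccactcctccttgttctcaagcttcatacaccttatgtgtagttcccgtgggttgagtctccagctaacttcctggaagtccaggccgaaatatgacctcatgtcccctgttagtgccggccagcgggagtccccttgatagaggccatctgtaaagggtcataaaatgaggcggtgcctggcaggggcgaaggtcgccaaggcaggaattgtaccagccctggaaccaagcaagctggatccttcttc
Tmigd1, GRCm38.p6 chr11:76890870-76891169, + strand: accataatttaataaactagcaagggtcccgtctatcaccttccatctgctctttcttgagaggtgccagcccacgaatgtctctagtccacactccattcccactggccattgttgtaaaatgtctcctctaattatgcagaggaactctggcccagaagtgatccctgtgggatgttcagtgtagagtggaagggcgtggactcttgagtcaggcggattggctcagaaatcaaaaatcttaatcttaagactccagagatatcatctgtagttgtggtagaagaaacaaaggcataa
Lrp2, GRCm38.p6 chr2:69585980-69586279, - strand: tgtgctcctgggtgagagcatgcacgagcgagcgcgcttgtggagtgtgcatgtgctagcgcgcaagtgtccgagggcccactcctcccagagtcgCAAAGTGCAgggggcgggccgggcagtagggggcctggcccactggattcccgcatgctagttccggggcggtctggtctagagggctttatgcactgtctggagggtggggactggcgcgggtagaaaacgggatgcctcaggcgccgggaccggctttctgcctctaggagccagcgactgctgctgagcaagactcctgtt
Wnt7a, GRCm38.p6 chr6:91411304-91411603, - strand: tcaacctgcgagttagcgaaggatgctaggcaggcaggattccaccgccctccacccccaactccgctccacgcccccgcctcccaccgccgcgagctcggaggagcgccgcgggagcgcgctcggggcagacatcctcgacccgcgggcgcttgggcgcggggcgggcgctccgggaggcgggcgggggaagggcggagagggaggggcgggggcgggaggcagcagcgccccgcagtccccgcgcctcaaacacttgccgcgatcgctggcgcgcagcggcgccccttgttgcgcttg

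In the 5 windows the 4 motifs had 1 match, an HNF4A-like CAAAGTGCA in Lrp2 whose first base lies 154 bases before the start. A window without a match says only that these letters are not in it. Over the 9415 tested genes with a promoter in the table, 7.19% held the CDX2-like letters, against 9.25% of the 1167 called lower and 5.72% of the 1119 called higher. Among called genes changed over 16-fold the shares were close, 13.6% of the 103 lower (14 genes) and 12.3% of the 65 higher (8 genes). The forkhead letters stood in 2.39% of all, 3.599% of those lower and 2.15% of those higher, the NKX2-1-like letters in 1.87%, 1.46% and 2.06%, and the HNF4A-like letters in 1.05%, 1.63% and 1.25%. Tmigd1 has 2 listed starts, of which the first in the table is shown. These shares are descriptions and a match is not a binding site.

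Of the 23 tested genes of the brush border list, 15 fell, none rose, and the median change was -1.15 (0.00 over all tested genes). Eps8l3, of a family of actin-capping proteins, went from 71.4 and 63.95 CPM to 4.0999 and 5.32 CPM (-3.84 ± 0.30, adjusted p = 0.000151). Mep1a, the alpha subunit of the surface protease meprin, fell from 10.1 and 8.0004 CPM to 0.422 and 0.256 CPM (-4.70 ± 0.34, adjusted p = 0.000113). Eps8 itself was at 256 and 254 CPM and 312 and 349.7 CPM and was not called. Another 11 genes of the list, among them the disaccharidases Sis and Lct, were at or close to 0 in both groups and were not tested, so only a portion of an enterocyte's surface genes was measured. The count of falls was 10 to 15 over the fits without 1 library, lowest without shControl replicate 1.

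Among 17 tested markers of stomach and intestine 9 fell and 1 rose, with a median of -2.96. Muc13, a membrane mucin, fell from 20.01 and 14.5 CPM to 0.241 and 0.192 CPM (-6.26 ± 0.40, adjusted p = 7.4e-05). In the knockdown Muc13 was close to the floor of 3 counts (0.181 and 0.192 CPM). Gpa33, a surface antigen of intestinal epithelium, fell from 34.8 and 29.3 CPM to 0.543 and 1.79 CPM (-4.78 ± 0.41, adjusted p = 0.000232). Krt20, the keratin of mature gut epithelium, fell from 176 and 147 CPM to 4.64 and 6.15 CPM (-4.90 ± 0.67, adjusted p = 0.0018). Anxa10, an annexin of gastric epithelium, fell from 98.8 and 80.98 CPM to 12.4 and 10.8 CPM (-2.96 ± 0.21, adjusted p = 0.000101). The fall was not shared by every gastric or intestinal gene: the tight junction gene Cldn18 stood at 149 and 142 CPM and 189 and 193 CPM and Ctse at 1.87 and 1.91 CPM and 1.93 and 1.73 CPM, both short of the threshold. The count of falls was 7 to 12 without 1 library.

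**Figure D3:**
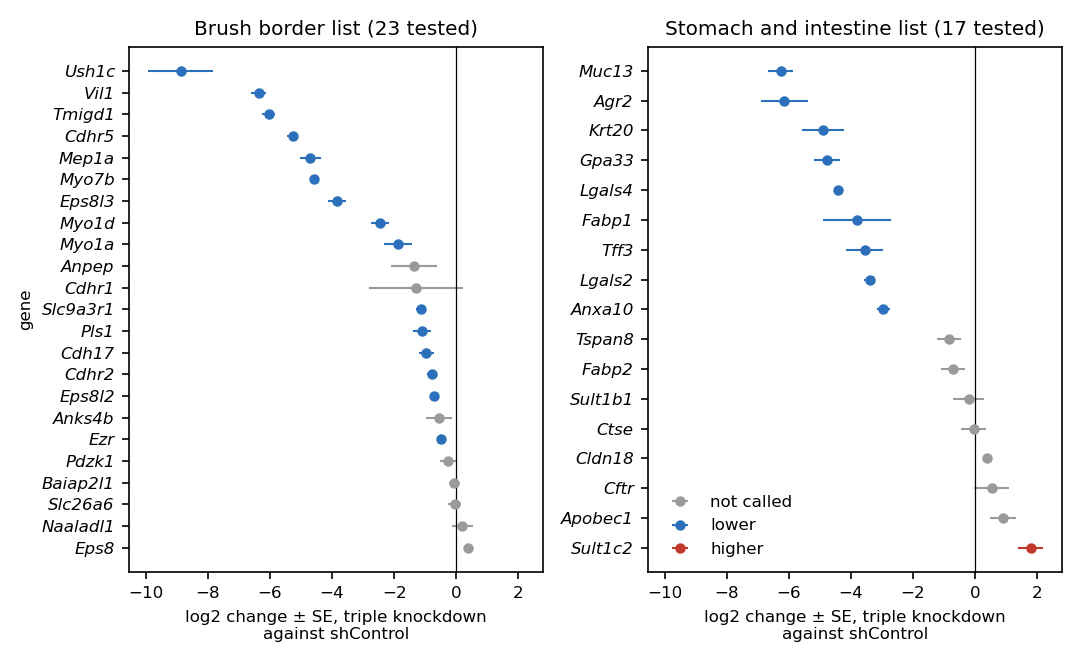
Log2 change with its standard error (horizontal axis) for each tested gene of the brush border list (left, 23 genes) and of the stomach and intestine list (right, 17 genes), in blue where called lower, red where called higher and grey where not called. In the left panel 15 genes are blue and none is red; Ush1c had no counts in the triple knockdown, so its fitted change is no bound.

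Proteins and enzymes shared by gut and liver fell as well. In the list of liver and plasma proteins 9 of 18 tested genes were lower and 2 higher (median -2.13; 6 to 11 lower without 1 library). Rbp4, the plasma carrier of retinol, fell from 251 and 283 CPM to 21.8 and 18.8 CPM (-3.71 ± 0.24, adjusted p = 7.56e-05). Apoc2, the apolipoprotein that activates lipoprotein lipase, fell from 106 and 104 CPM to 18.5 and 23.01 CPM (-2.34 ± 0.18, adjusted p = 0.000137). Cfb, complement factor B, fell from 55.3 and 62.8 CPM to 3.26 and 5.13 CPM (-3.82 ± 0.34, adjusted p = 0.000267). Of 29 tested cytochrome P450 genes 9 fell and 1 rose. Cyp2c65, a P450 of the gastrointestinal tract in mouse, dropped from 111 and 100.3 CPM to 1.09 and 0.833 CPM (-6.77 ± 0.21, adjusted p = 3.25e-06), with the reservation that Cyp2c genes share sequence. Cyp4f14, a fatty acid and leukotriene hydroxylase, dropped from 135 and 117 CPM to 0.724 and 0.513 CPM (-7.65 ± 0.34, adjusted p = 1.36e-05). Cyp4b1 fell from 52.6 and 52.6 CPM to 4.34 and 4.23 CPM (-3.62 ± 0.19, adjusted p = 3.11e-05). Conjugating enzymes (UGT, SULT and GST) counted 9 lower and 4 higher of 29, and aldo-keto reductases with aldehyde dehydrogenases 12 lower and 2 higher of 29. Gsta4, a glutathione transferase for lipid aldehydes, went from 165 and 175 CPM to 66.2 and 54.3 CPM (-1.50 ± 0.20, adjusted p = 0.00162). Without 1 library the falls in these families were 6 to 9, 4 to 13 and 4 to 17.

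Genes of fatty acid oxidation and of gluconeogenesis were called lower more often than tested genes in general (34.5% and 50%, against 12.4%). In sterol and fatty acid synthesis the share higher, 12.5%, was close to the 12% of all tested genes, and 3.13% were lower. In fatty acid oxidation and ketone metabolism 10 of 29 tested genes fell and 2 rose (6 to 13 falls without 1 library). Hadhb, a subunit of the mitochondrial trifunctional protein, fell from 272 and 230.4 CPM to 104 and 102 CPM (-1.28 ± 0.16, adjusted p = 0.00111). Slc25a20, the carnitine carrier, fell from 52.3 and 46.5 CPM to 25.9 and 27.9 CPM (-0.88 ± 0.13, adjusted p = 0.00234). Plin2, the coat protein of lipid droplets, rose instead, from 189 and 183 CPM to 418 and 407 CPM (1.15 ± 0.10, adjusted p = 0.000235). Fbp2, a fructose-bisphosphatase of gluconeogenesis, fell from 141 and 129.97 CPM to 66.4 and 71.1 CPM (-0.98 ± 0.13, adjusted p = 0.00158). It was 1 of 5 falls among 10 tested genes of gluconeogenesis and fructose use, none of which rose (2 to 6 falls without 1 library). In sterol and fatty acid synthesis 4 of 32 tested genes were higher and 1 lower (1 to 13 and 0 to 3 without 1 library).

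Glycolytic genes were among the rises. Gapdh went from 3781 and 3795 CPM to 6885 and 7111 CPM (0.89 ± 0.10, adjusted p = 0.000953), and Pkm2 (pyruvate kinase) from 2432 and 2384 CPM to 4198 and 4730.1 CPM (0.89 ± 0.15, adjusted p = 0.00454). Hk2, the hexokinase that starts glycolysis, rose from 38.3 and 43.1 CPM to 149.5 and 125 CPM (1.75 ± 0.15, adjusted p = 0.000235). Hif1a, the oxygen-regulated factor that acts on many of these genes, rose from 167 and 139 CPM to 331 and 340.02 CPM (1.14 ± 0.15, adjusted p = 0.00171). Its relative Epas1 (HIF-2 alpha) fell from 61.7 and 64.3 CPM to 9.59 and 13.8 CPM (-2.43 ± 0.35, adjusted p = 0.00216), the single fall against 19 rises among 38 tested hypoxia and glycolysis genes. The proline hydroxylases P4ha1, for collagen, and Egln1, for HIF proteins, rose by 1.12 ± 0.14 and 0.99 ± 0.12 with adjusted p = 0.00102 and 0.00111. Without 1 library 11 to 25 genes of the list were higher.

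Other falls were named for their loss in CPM, a measure that also depends on gene length. Thbs1, the matricellular protein thrombospondin-1, went from 2875 and 3379.6 CPM to 98.5 and 77.6 CPM (-5.15 ± 0.48, adjusted p = 0.000308). Nedd4, a ubiquitin ligase, fell from 2441 and 2574 CPM to 869 and 884 CPM (-1.52 ± 0.10, adjusted p = 9.3e-05). Ank, which exports ATP and pyrophosphate, fell from 1519 and 1561 CPM to 364 and 441 CPM (-1.94 ± 0.18, adjusted p = 0.00031). Sepp1, the selenium carrier selenoprotein P, fell from 1061 and 938 CPM to 61.6 and 70.6 CPM (-3.92 ± 0.18, adjusted p = 1.59e-05). Thbs1 was at a mean of 1288 CPM in shNkx2-1, between the other 2 groups, whereas Sepp1 was at 1174 CPM there and low only in the triple knockdown of these 3 groups. Aplp2, a relative of the amyloid precursor protein, fell from 1089 and 938 CPM to 165 and 158 CPM (-2.65 ± 0.11, adjusted p = 1.2e-05).

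Of the 12 largest rises by fold among genes at 20 CPM or more, all but Prl2c2 were of genes under 10 CPM in both control libraries. Lrp2, the endocytic receptor megalin, stood at 1.6005 and 2.48 CPM in shControl and 282 and 149.9 CPM in the triple knockdown (6.70 ± 0.88, adjusted p = 0.00153). Its knockdown duplicates differ from each other, and both lie far above every control and shNkx2-1 library. The paired Wnt ligands Wnt7a (1.53 and 1.703 CPM to 103 and 89.2 CPM, 5.88 ± 0.47, adjusted p = 0.000172) and Wnt7b (2.201 and 3.25 CPM to 144 and 162 CPM, 5.79 ± 0.54, adjusted p = 0.000313) rose together. Slc4a11, a membrane transporter of the bicarbonate carrier family, rose from 0.467 and 0.619 CPM to 38.1 and 37.7 CPM (6.09 ± 0.40, adjusted p = 7.56e-05). Tnnt2, the cardiac troponin T gene, rose from 3.67 and 6.97 CPM to 204 and 311 CPM (5.57 ± 0.36, adjusted p = 7.54e-05). These 5 genes were also higher in the triple knockdown than in shNkx2-1, by 4.75 ± 0.35, 4.52 ± 0.50, 4.32 ± 0.42, 3.65 ± 0.32 and 2.97 ± 0.70 on the log2 scale for Slc4a11, Wnt7b, Wnt7a, Tnnt2 and Lrp2 (adjusted p = 0.000142, 0.000849, 0.00047, 0.000295 and 0.0209). Prl2c2, a placental prolactin-like hormone gene also called proliferin, stood at 29.1 and 20.4 CPM and 775 and 721 CPM (4.92 ± 0.83, adjusted p = 0.00442), a value that is uncertain because near-identical Prl2c copies share its reads, and the call was lost without shControl replicate 2 (adjusted p = 0.0505). Amd1, which had counts in both shControl libraries and none in the triple knockdown, shares nearly its whole sequence with Amd2 and is not read as a change.

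Among the largest falls, Gdf6, a bone morphogenetic protein ligand, stood at 33.5 and 40.1 CPM in shControl and at 0 and 0.128 CPM in the triple knockdown, where both libraries together held 2 counts (ratio of control to knockdown 599, 95% counting interval 166 to 4954). Grhl3, a grainyhead factor of surface epithelia, fell from 40.6 and 33.3 CPM to 0.241 and 0.385 CPM (-6.86 ± 0.49, adjusted p = 0.000114), and its relative Grhl2 from 6.27 and 5.26 CPM to 1.21 and 1.41 CPM (-2.13 ± 0.33, adjusted p = 0.00298). Clrn3, of the clarin family, fell from 23.5 and 18.3 CPM to 0.0603 and 0.192 CPM (-7.31 ± 0.41), Slc1a3, a glutamate transporter, from 34.01 and 39.6 CPM to 0.603 and 0.128 CPM (-6.60 ± 0.52). Rasl11a, a small GTPase, fell from 81.9 and 93.8 CPM to 1.69 and 0.577 CPM (-6.25 ± 0.51), with adjusted p = 3.62e-05, 0.000159 and 0.000181. All of these were well above 10 CPM in shNkx2-1 except Grhl2, at a mean of 7.44 CPM.

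**Figure D4:**
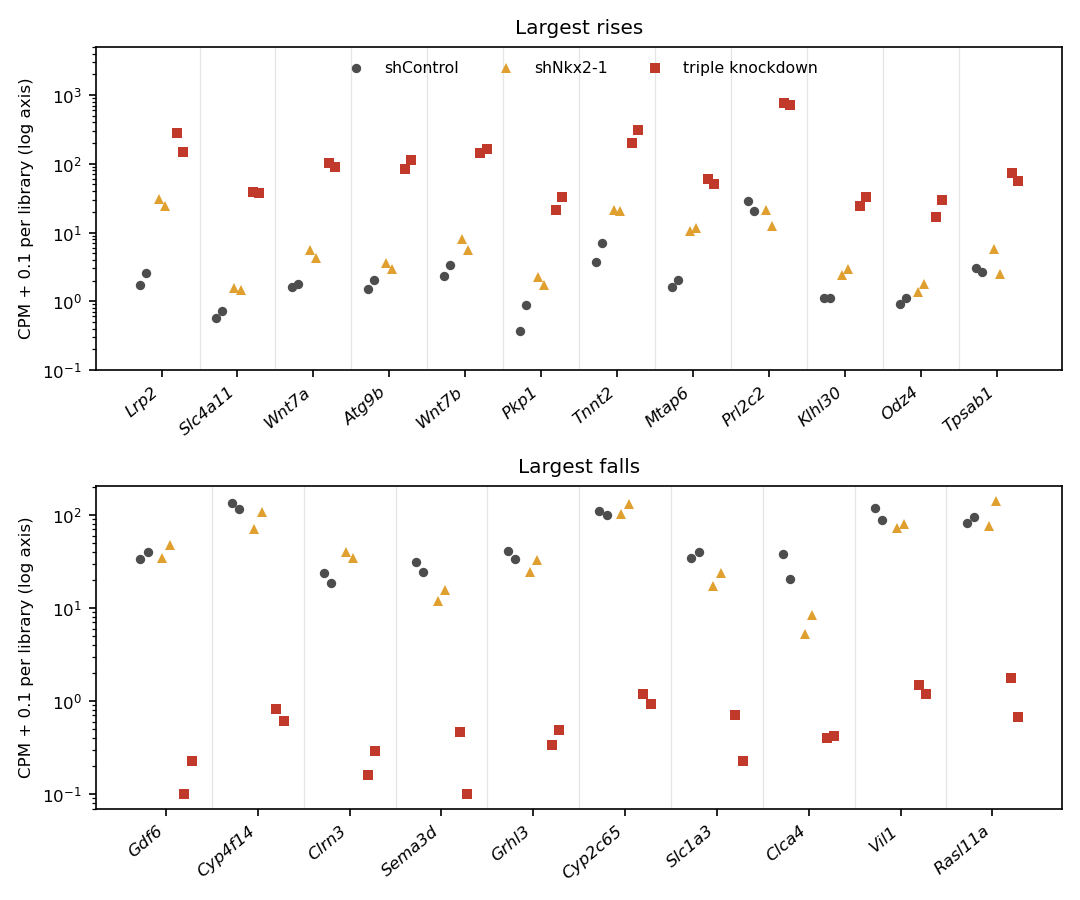
CPM plus 0.1 per library (vertical log axes) for the 12 largest rises (upper panel) and 10 of the 12 largest falls (lower panel) by fold among genes whose higher group averaged 20 CPM or more, in shControl (circles), shNkx2-1 (triangles) and the triple knockdown (squares). Both squares are apart from both triangles in each gene, while being apart from both circles was a condition of the choice; Prl2c2 shares reads with near-identical copies.

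Structural genes of epithelium moved in both directions. Krt7, a keratin of simple ducts, rose from 109 and 124 CPM to 1165 and 1111 CPM (3.29 ± 0.15, adjusted p = 1.59e-05), the smallest p among the genes that rose, while Krt20 fell as given above and Krt79 went from 90.2 and 100.03 CPM to 25.99 and 27.4 CPM (-1.83 ± 0.21, adjusted p = 0.000853). Of 18 tested keratins 7 rose and 3 fell (2 to 10 rises without 1 library). The simple-epithelium keratins Krt8 (4004 and 3765 CPM and 4593 and 5097 CPM) and Krt19 (1881 and 1828 CPM and 1262 and 1516 CPM) were not called. Krt18, of the same kind, rose from 1388 and 1350 CPM to 2671 and 2848 CPM (1.01 ± 0.29, adjusted p = 0.0404). The plakophilins of desmosomes rose, Pkp1 from 0.267 and 0.774 CPM to 21.2 and 32.95 CPM (5.61 ± 0.45, adjusted p = 0.000176) and Pkp3 from 0.2001 and 0.258 CPM to 5.49 and 4.55 CPM (4.39 ± 0.49, adjusted p = 0.000708). Ppl, the cornified-envelope protein periplakin, rose from 5.402 and 10.6 CPM to 34.01 and 40.1 CPM (2.20 ± 0.29, adjusted p = 0.0016). Among tight junction genes the claudins Cldn9 (0.133 and 0.361 CPM to 15.1 and 20.5 CPM, 6.06 ± 0.41, adjusted p = 8.69e-05) and Cldn6 (1.27 and 2.99 CPM to 36.4 and 37.2 CPM, 4.06 ± 0.44, adjusted p = 0.000627) rose. Tjp3, a scaffold under the tight junction, fell from 16.9 and 14.9 CPM to 2.83 and 4.103 CPM (-2.19 ± 0.29, adjusted p = 0.00146), as did Lsr, a protein of contacts where cells meet at corners, from 128 and 128 CPM to 72.5 and 72.2 CPM (-0.82 ± 0.10, adjusted p = 0.000961). In the epithelial adhesion list 9 of 24 tested genes fell and 5 rose (4 to 10 falls and 5 to 8 rises without 1 library). Cdh1, the adherens junction gene E-cadherin, stood at 946 and 1005 CPM and 682 and 754 CPM (-0.44 ± 0.12, adjusted p = 0.0347), a call that was lost in each fit without 1 of the 4 compared libraries, with an adjusted p up to 0.224. Gap junction genes rose in 5 of 10 and fell in 1; among the rises was Gjc1 (2.601 and 2.58 CPM to 11.03 and 9.17 CPM, 1.96 ± 0.23, adjusted p = 0.000844), and there were 3 to 6 rises without 1 library.

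Regulators tied to the change from epithelial to mesenchymal state gave no single direction, with 4 of 23 tested higher and 5 lower (2 to 6 of each without 1 library). Snai2 rose from 4.33 and 4.49 CPM to 16.8 and 14.3 CPM (1.82 ± 0.20, adjusted p = 0.000683). Zeb1 stood at 41.2 and 48.3 CPM and 58.4 and 71.2 CPM and Zeb2 at 15.2 and 17.7 CPM and 19.1 and 18.5 CPM, and neither was called, nor was Cdh2 (N-cadherin) at 118 and 131 CPM and 123 and 120.1 CPM. Mesenchymal and cytoskeletal genes did rise in number, 13 of 31 against 2 falls (6 to 16 rises without 1 library). Vim, the intermediate filament vimentin, was already abundant in the control and rose from 2191 and 2274 CPM to 4196 and 4743 CPM (1.002 ± 0.11, adjusted p = 0.000756). Flnc, a filamin of muscle, rose from 6.94 and 13.2 CPM to 284 and 188 CPM (4.54 ± 0.51, adjusted p = 0.000779). Lgals1, a galectin of mesenchymal cells, rose from 881 and 973 CPM to 1875 and 2114 CPM (1.11 ± 0.12, adjusted p = 0.000529). The oncofetal genes Hmga2 (78.6 and 80.3 CPM to 703 and 658 CPM, 3.10 ± 0.18, adjusted p = 5.29e-05), a chromatin protein of embryos, and Igf2bp2 (6.602 and 7.02 CPM to 85.6 and 60.8 CPM, 3.42 ± 0.25, adjusted p = 0.000126), an RNA-binding protein, rose as well. Igf2bp2 averaged 66.6 CPM in shNkx2-1, with a difference from the triple knockdown of 0.14 ± 0.22 (adjusted p = 0.705), while Hmga2 was 1.96 ± 0.18 above shNkx2-1 (adjusted p = 0.000342).

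Collagens and matrix glycoproteins had more rises than falls. Collagen genes were higher in 10 of 28 tested and lower in 3, with a median of 1.02 (6 to 14 higher without 1 library), and matrix glycoproteins were higher in 13 of 40 and lower in 2 (6 to 16 higher). Fbln2, an elastic fibre and basement membrane protein, rose from 92.9 and 133 CPM to 1544 and 1675 CPM (3.83 ± 0.21, adjusted p = 3.4e-05). Acan, the cartilage proteoglycan aggrecan, rose from 34.1 and 34.9 CPM to 351 and 388 CPM (3.42 ± 0.26, adjusted p = 0.000135). Gpc1, a heparan sulfate proteoglycan of the cell surface, rose from 145 and 157 CPM to 517 and 580.4 CPM (1.86 ± 0.12, adjusted p = 7.56e-05). Col7a1, the collagen of anchoring fibrils, rose from 2.13 and 2.27 CPM to 44.7 and 27.8 CPM (4.03 ± 0.28, adjusted p = 9.5e-05), Col8a1, a short-chain collagen, from 2.07 and 2.32 CPM to 24.4 and 28.5 CPM (3.58 ± 0.19, adjusted p = 3.16e-05). Col5a1 rose from 36.1 and 39.95 CPM to 169 and 172 CPM (2.16 ± 0.16, adjusted p = 0.000117). The basement membrane collagen Col4a1 stood at 1079 and 977 CPM and 732 and 827 CPM and was not called. Laminin chains went both ways, with Lamb3 up from 65.8 and 69.2 CPM to 174 and 214 CPM (1.52 ± 0.13, adjusted p = 0.000194) and Lamb2 down from 291 and 294 CPM to 105 and 107 CPM (-1.46 ± 0.13, adjusted p = 0.00028).

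Receptors for that matrix went both ways as well. Itga1, the integrin chain for collagen, fell from 86.2 and 119.95 CPM to 2.89 and 4.74 CPM (-4.76 ± 0.32, adjusted p = 8.69e-05). Itga7, a chain for laminin, fell from 34.9 and 38.6 CPM to 4.22 and 4.68 CPM (-3.05 ± 0.15, adjusted p = 2.54e-05). Itga3, another laminin receptor chain, rose from 304 and 342 CPM to 584 and 609 CPM (0.89 ± 0.10, adjusted p = 0.000889). Over the family 6 of 22 tested integrin genes rose and 4 fell (2 to 9 and 3 to 6 without 1 library). Proteases followed no single direction: Adam8 rose from 5.27 and 3.87 CPM to 52.4 and 53.8 CPM (3.55 ± 0.27, adjusted p = 0.000151) and Mmp15 fell from 11.7 and 8.83 CPM to 1.02 and 0.385 CPM (-3.84 ± 0.39, adjusted p = 0.000492), with 10 of 37 metalloproteinase and inhibitor genes higher and 5 lower (4 to 13 and 3 to 7 without 1 library). The serine protease Htra1 rose from 17.3 and 15.1 CPM to 100.03 and 90.3 CPM (2.56 ± 0.16, adjusted p = 7.56e-05). The cysteine protease Ctsl rose from 275 and 248 CPM to 523 and 533 CPM (1.01 ± 0.11, adjusted p = 0.000626). Cst3, the secreted inhibitor of such cathepsins, fell from 322 and 384 CPM to 114 and 126 CPM (-1.56 ± 0.15, adjusted p = 0.000377). Serpins were higher in 8 of 17 and lower in 3 (6 to 10 higher without 1 library). In the invadopodia and actin list 10 of 27 rose and 4 fell (4 to 12 rises without 1 library), with Fscn1, the actin bundler fascin, at 110.4 and 144 CPM and 415 and 372 CPM (1.63 ± 0.17, adjusted p = 0.000496). Sh3pxd2a, the invadopodia scaffold Tks5, stood at 154 and 169 CPM and 238 and 274 CPM (0.66 ± 0.14, adjusted p = 0.0118), a call that was lost without either shControl library or triple knockdown replicate 2, with an adjusted p up to 0.102.

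Signals passed between cells changed at the level of ligands and receptors. In the EGFR, RAS and ERK list 20 of 44 tested genes rose and 4 fell (10 to 28 rises without 1 library), and both ligands and feedback inhibitors were among them. Nrg1, a ligand of ERBB receptors, rose from 2.33 and 2.89 CPM to 15.6 and 15.2 CPM (2.55 ± 0.25, adjusted p = 0.000387), whereas Epgn, an EGFR ligand, fell from 4.87 and 3.097 CPM to 0.482 and 0.513 CPM (-2.98 ± 0.41, adjusted p = 0.00177). Errfi1, an inhibitor of EGFR, rose from 74.2 and 48.2 CPM to 188 and 178 CPM (1.58 ± 0.21, adjusted p = 0.00168). Dusp5, a nuclear phosphatase for ERK, rose from 13.6 and 9.55 CPM to 36.6 and 34.5 CPM (1.62 ± 0.23, adjusted p = 0.00197). Fgf1 fell from 186 and 189.8 CPM to 22.9 and 32.1 CPM (-2.78 ± 0.18, adjusted p = 8.26e-05) while Pdgfb rose from 2.87 and 3.97 CPM to 46.8 and 41.6 CPM (3.68 ± 0.29, adjusted p = 0.000156). In the insulin and IGF pathway the receptor adaptor Irs1 fell from 35.6 and 29.1 CPM to 4.58 and 3.91 CPM (-2.92 ± 0.18, adjusted p = 7.07e-05), and the binding protein Igfbp3 rose from 11.7 and 9.39 CPM to 117 and 91.6 CPM (3.31 ± 0.25, adjusted p = 0.000137). Notch1 rose from 12.1 and 13.9 CPM to 68.9 and 57.6 CPM (2.28 ± 0.25, adjusted p = 0.000633). Dhh, a hedgehog ligand, rose from 5.202 and 9.24 CPM to 33.9 and 40.2 CPM (2.35 ± 0.26, adjusted p = 0.000708). Inhba, the activin subunit, rose from 11.4 and 9.86 CPM to 40.3 and 41.2 CPM (1.94 ± 0.25, adjusted p = 0.00149), and the receptor Bmpr2 fell from 50.02 and 53.7 CPM to 26.1 and 25.3 CPM (-1.01 ± 0.14, adjusted p = 0.00197), within a TGF-beta and BMP list that counted 9 of 44 in each direction (3 to 12 higher and 3 to 11 lower without 1 library). Ankrd1, a target of YAP and TEAD factors, rose from 93.9 and 81.9 CPM to 316 and 284 CPM (1.77 ± 0.11, adjusted p = 7.4e-05). Cyr61, another such target, stood at 588 and 235 CPM and 478 and 435 CPM, and its control duplicates were far apart.

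Guidance cues and cytokine receptors added some of the smallest p-values. Nrp2, a receptor for semaphorins and VEGF-C, rose from 1.27 and 1.65 CPM to 17.97 and 23.7 CPM (3.81 ± 0.20, adjusted p = 3.11e-05), and the ligand Sema3a fell from 70.6 and 73.8 CPM to 8.68 and 7.24 CPM (-3.18 ± 0.15, adjusted p = 2.1e-05). Slit2, a repellent ligand of Robo receptors, fell from 58.7 and 56.3 CPM to 13.99 and 13.5 CPM (-2.07 ± 0.15, adjusted p = 0.000119). Across the family of semaphorins, plexins and related cues 9 of 33 rose and 9 fell (5 to 13 rises and 8 to 13 falls without 1 library). Cxcr7, a scavenging receptor for the chemokine CXCL12, rose from 15.005 and 17.1 CPM to 114 and 122 CPM (2.87 ± 0.14, adjusted p = 2.17e-05). Il22ra1, the epithelial receptor chain for interleukin 22, fell from 56.5 and 48.3 CPM to 15.9 and 16.5 CPM (-1.69 ± 0.15, adjusted p = 0.000235), and Il6ra rose from 2.13 and 2.68 CPM to 12.3 and 13.9 CPM (2.43 ± 0.20, adjusted p = 0.000181). Of 27 tested interferon and antigen display genes 1 was higher and 4 lower (0 to 3 and 1 to 9 without 1 library). The share lower, 14.8%, was close to the 12.4% of all tested genes, and 3.7% were higher, against 12%. Cd274, the checkpoint ligand PD-L1, fell from 21.9 and 17.1 CPM to 3.196 and 3.97 CPM (-2.44 ± 0.33, adjusted p = 0.00164).

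Prostaglandin genes moved in both directions. Ptgs2, the inducible cyclooxygenase, rose from 51.9 and 40.2 CPM to 257 and 251 CPM (2.47 ± 0.28, adjusted p = 0.000811). Ptgs1 rose from 2.47 and 2.12 CPM to 28.9 and 18.8 CPM (3.39 ± 0.25, adjusted p = 0.000133). Slco2a1, the transporter that takes prostaglandins up, fell from 502 and 381 CPM to 40.5 and 40.6 CPM (-3.44 ± 0.19, adjusted p = 3.62e-05). Hpgd, the dehydrogenase that inactivates them, fell from 8.603 and 7.17 CPM to 0.121 and 0.128 CPM (-5.91 ± 0.61, adjusted p = 0.000496). In the knockdown Hpgd was below the floor of 3 counts (0.181 and 0.192 CPM), so the size of its fall is uncertain. The whole list had 6 of 16 tested genes higher and 5 lower (2 to 7 and 3 to 7 without 1 library). Retinoid genes gave 7 of 19 lower and 5 higher (5 to 7 and 2 to 5). Aldh1a1, which makes retinoic acid, fell from 249 and 176 CPM to 27.98 and 16.99 CPM (-3.24 ± 0.30, adjusted p = 0.000314). Dhrs3, which returns retinal to retinol, fell from 38.4 and 22.5 CPM to 4.22 and 2.95 CPM (-3.08 ± 0.50, adjusted p = 0.00384). The receptor Rarg rose from 5.54 and 8.21 CPM to 18.5 and 23.1 CPM (1.59 ± 0.21, adjusted p = 0.00155). Tgm2, a transglutaminase induced by retinoic acid in many cells, rose from 17.3 and 21.6 CPM to 110.3 and 135 CPM (2.65 ± 0.22, adjusted p = 0.000181).

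Solute carriers were called at shares close to those of all genes, whereas ABC transporters and potassium channels were called more often. Of the tested ABC transporters 32.4% were lower and 10.8% higher. Of the tested potassium channel genes 29.6% were lower and 25.9% higher. Of 202 tested solute carriers 31 rose and 36 fell, 15.3% and 17.8%, against 12% and 12.4% of all genes (12 to 37 and 18 to 60 without 1 library). Slc26a2, a sulfate transporter, fell from 256 and 228 CPM to 39.9 and 37.7 CPM (-2.64 ± 0.11, adjusted p = 9.04e-06). Slc24a3, a sodium, calcium and potassium exchanger, fell from 36.9 and 33.7 CPM to 1.45 and 0.449 CPM (-5.19 ± 0.35, adjusted p = 8.69e-05). ABC transporters leaned lower, 12 of 37 against 4 higher (4 to 15 falls without 1 library). Abcd3, of peroxisomes, went from 316 and 294 CPM to 176 and 189 CPM (-0.74 ± 0.12, adjusted p = 0.00336), while Abcc1, a pump for glutathione conjugates, rose from 123 and 139.8 CPM to 220.2 and 244 CPM (0.82 ± 0.11, adjusted p = 0.00144). Potassium channel genes split into 7 higher and 8 lower of 27 (5 to 8 and 2 to 9 without 1 library), with Kcnn4, a calcium-activated channel, up from 57.8 and 58.9 CPM to 139 and 145 CPM (1.28 ± 0.16, adjusted p = 0.00111).

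**Figure D5:**
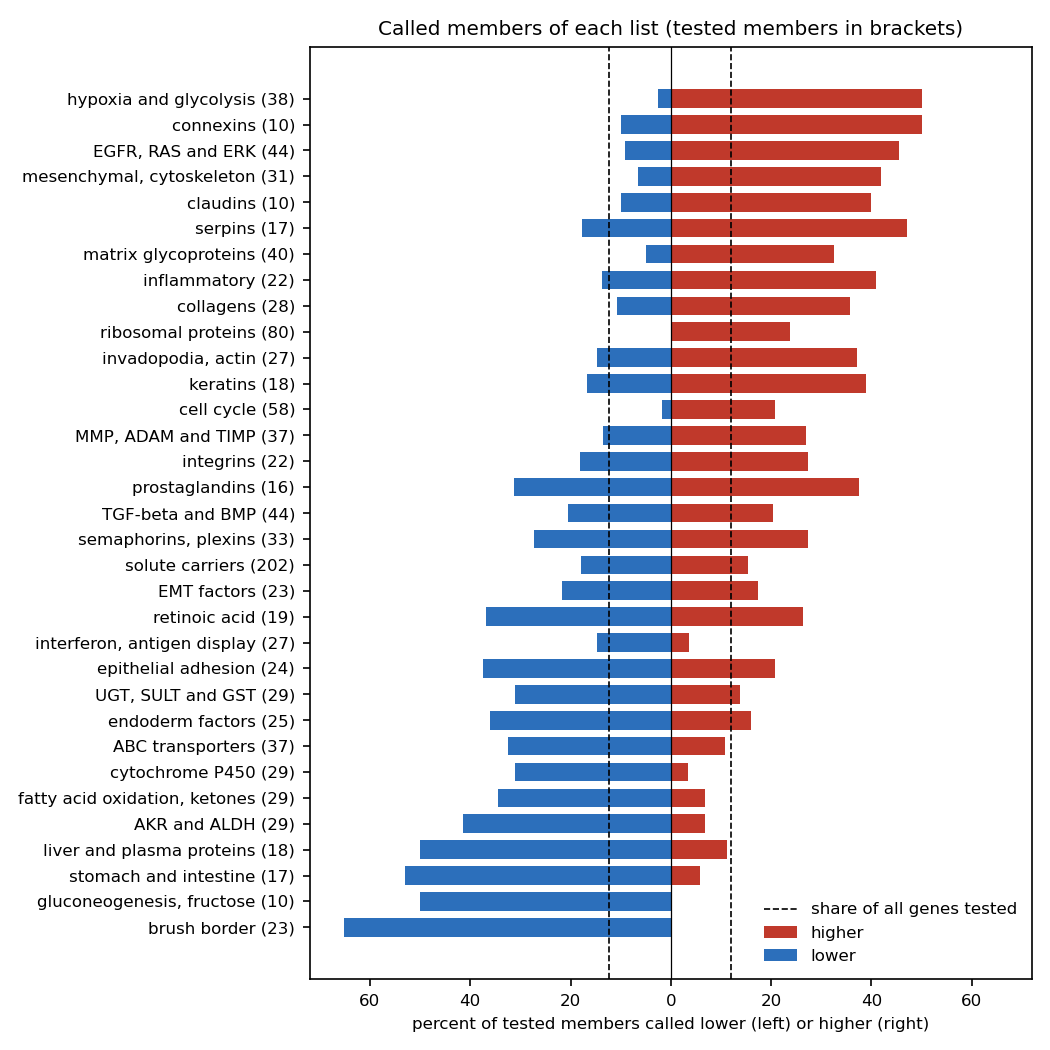
Percent of the tested genes of 33 of the 73 lists and families called lower (blue, to the left) or higher (red, to the right) in the triple knockdown, with the number tested in brackets and dashed lines at the shares over all genes, 12.4% lower and 12% higher. The brush border list reaches 65.2% lower and the hypoxia and glycolysis list 50% higher, while solute carriers stay close to both lines.

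Growth genes rose less clearly. Of 58 tested cell cycle genes 12 were higher and 1 lower, and of 80 ribosomal protein genes 19 were higher and none lower. Both counts rest on small changes, with medians of 0.38 and 0.28, and over the fits without 1 library the rises were 1 to 33 in each list, fewest without shControl replicate 1. With library totals in place of TMM factors the ribosomal protein rises were 9. Cdc25b, a phosphatase that starts mitosis, rose from 82.96 and 89.1 CPM to 176 and 178 CPM (1.04 ± 0.13, adjusted p = 0.00135), and Cdk6, a kinase of the G1 phase, fell from 44.7 and 44.4 CPM to 21.9 and 20.9 CPM (-1.06 ± 0.14, adjusted p = 0.00166). Mki67, the proliferation marker, was at 405 and 453 CPM and 621 and 662 CPM and was not called. Cdkn1a, the cell cycle inhibitor p21, rose from 10.5 and 9.39 CPM to 27.7 and 30.96 CPM (1.56 ± 0.15, adjusted p = 0.000417). The cells lack Trp53 by their labels, and Trp53 itself stood at 4.801 and 4.54 CPM and 4.0999 and 3.46 CPM, which does not check the genotype, since the sources used here do not name the deleted part.

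Lung markers were present in part. Of 4 tested airway markers Aldh1a1 and Muc5b fell, Krt14 rose and Trp63 was not called. Muc5b went from 5.67 and 8.98 CPM to 0.724 and 0.897 CPM, and Krt14 from 0.133 and 0 CPM to 3.98 and 5.71 CPM. The airway genes Foxj1 and Krt5 had no counts in these 4 libraries. Of 5 tested neuroendocrine markers Ncam1 alone was called, and it was higher (1.03 ± 0.19, adjusted p = 0.00726). Most of the alveolar type 1 list did not rise, and its median change was -0.10. The 6 tested members not called, among them Ager, Rtkn2, Clic5 and Aqp5, had changes from -0.43 to -0.06. Of 9 tested alveolar type 1 markers 3 rose and none fell (3 rises in each fit without 1 library): Cav1, the caveolin of membrane pits, from 108 and 145 CPM to 452 and 544 CPM (1.98 ± 0.17, adjusted p = 0.000235), Cav2 from 117 and 128 CPM to 259 and 265 CPM (1.10 ± 0.12, adjusted p = 0.000701) and Emp2, a membrane protein, from 76.2 and 86.2 CPM to 204 and 269.6 CPM (1.54 ± 0.16, adjusted p = 0.000482). Of 9 tested alveolar type 2 markers 3 fell and 2 rose (2 to 4 and 0 to 5 without 1 library), among them the cytokine Il33, from 72.96 and 47.95 CPM to 13.7 and 6.99 CPM (-2.54 ± 0.42, adjusted p = 0.00435), beside Cebpa above. The remaining type 2 calls, Abca3 lower and Lpcat1 and Muc1 higher, were each lost in every fit without 1 of the 4 compared libraries. Summed over all 12 type 1 markers the level was 2198 and 2047 CPM in shControl and 2559.5 and 2486 CPM in the triple knockdown, and over 17 type 2 markers 635 and 639 CPM and 414 and 438 CPM. The surfactant genes Sftpa1, Sftpc and Sftpd and the alveolar markers Lamp3, Hopx and Pdpn had at most 1 count in any of the 4 libraries, and Sftpb stood at 0.8002 and 0.619 CPM and 0.724 and 0.897 CPM. Aqp5, a water channel of alveolar type 1 and gland cells, stood at 1471 and 1221 CPM and 1234 and 963 CPM and was not called. Epcam, a common epithelial marker, stayed under 0.5 CPM in all 4 libraries, while Krt8 and Cdh1 were high in both groups as given above. Summed over 9 leukocyte markers the level was 2.001 and 2.48 CPM in shControl and 3.44 and 4.36 CPM in the triple knockdown, with Tyrobp at 0, and the 1 tested, Cd68, rose (1.07 and 1.81 CPM to 2.89 and 3.97 CPM, adjusted p = 0.0384). The calls of Cd68 and, below, Pdgfra were each lost in every fit without 1 of the 4 compared libraries, and that of Cd68 also by DESeq2. The 9 endothelial markers summed to 0.734 and 1.19 CPM and 1.81 and 1.54 CPM, with Cldn5, Emcn and Erg at 0. The 10 fibroblast markers summed to 5.402 and 5.47 CPM and 20.1 and 20.3 CPM, with Lum, Postn and Thy1 at 0 and most of the sum in Col1a1 (3.13 and 3.72 CPM and 14.5 and 15.3 CPM, not called); of 5 tested, Pdgfra rose (0.667 and 0.723 CPM to 1.93 and 2.5002 CPM, adjusted p = 0.0167). Other defining markers of these cell types (Ptprc, Pecam1, Cdh5, Dcn) were under 0.5 CPM in all 4 libraries. In bulk RNA, fewer cells that express a gene and less RNA per cell cannot be told apart.

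The triple knockdown was also set against shNkx2-1, which carries an shRNA against Nkx2-1 in the same kind of cells. Here 2711 genes were called, 1235 higher and 1476 lower, or 20.4%, 9.27% and 11.1% of those tested. Nkx2-1 was not called between the 2 groups (-0.20 ± 0.15, adjusted p = 0.404, with a mean of 41.3 CPM in shNkx2-1), while Foxa2 (-0.54 ± 0.15, adjusted p = 0.0355), Foxa1 (-1.59 ± 0.13, adjusted p = 0.000197) and Cdx2 (-4.48 ± 0.18, adjusted p = 6.93e-06) were lower. Cdx2 averaged 181 CPM in shNkx2-1, above both shControl libraries. Of the brush border genes given above, Myo7b averaged 282 CPM, Cdhr5 174 CPM, Tmigd1 192 CPM and Vil1 76.005 CPM in shNkx2-1, and all 4 were lower in the triple knockdown (adjusted p = 1.68e-06, 3.02e-06, 3.02e-06 and 6.2e-06). Klf2, a Krüppel-like factor of quiescent and endothelial cells, averaged 1.26 CPM in shNkx2-1 and rose to 24.1 and 36.8 CPM (4.59 ± 0.30, adjusted p = 9.12e-05), against 4.13 and 4.75 CPM in shControl. Other genes were not called between these 2 groups. Krt20 averaged 9.11 CPM in shNkx2-1 and the difference from the triple knockdown was -0.76 ± 0.65 (adjusted p = 0.456), Sparc, a matricellular protein, averaged 605 CPM (-0.02 ± 0.10, adjusted p = 0.906; 361 and 375 CPM in shControl and 602 and 591 CPM in the triple knockdown), and Acsl1, an acyl-CoA synthetase, 18.7 CPM (0.04 ± 0.14, adjusted p = 0.865; 38.3 and 37.2 CPM and 19.7 and 18.7 CPM). A p above the threshold does not show that the 2 groups are alike in these genes. The comparisons with shControl and with shNkx2-1 share the triple knockdown libraries, so their values are set side by side only.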

How the data were processed

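Polyadenylated RNA of mouse lung adenocarcinoma lines was sequenced in 8 libraries (single-end reads of 45 nt, per the labels' protocols). The authors deposited 1 table of estimated counts (RSEM expected counts) per gene. Per the submitters' processing notes, the tools were RSEM 1.2.12 and Bowtie 1.0.1, and the build mm9; the annotation and strand setting are not stated there. RSEM divides reads among genes of shared sequence, so values of near-identical genes are uncertain.

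Estimated counts were rounded and fitted for all 8 libraries in 4 groups with edgeR 4.0.16 (R 4.3.3), TMM factors, filterByExpr (minimum count 10, minimum total 15), the quasi-likelihood test, two-sided, and Benjamini-Hochberg adjustment over the 13318 tested genes, threshold 0.05. The shared spread had 4 residual degrees of freedom and a common biological coefficient of variation of 15.6%. Totals were 14496995 to 21044835 per library, and a floor of 3 counts was 0.151 to 0.2001 CPM. Counting intervals cover counting error only. The fit was tested on simulated data with 200 changed genes.

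Named genes had to pass the threshold, not overlap between groups and carry no clone name. They were the targeted genes and 9 others whatever their result, the 10 largest gains and losses in CPM, the 12 largest rises and falls by fold at 20 CPM or more, the 5 smallest p-values in each direction, up to 6 per list or family, and the 6 largest rises and falls against shNkx2-1. Not all of them are described. Families gathered by the pattern of the gene symbol can count genes that share only the name. Itgb1bp1, Itgb3bp and Itgbl1 were counted with the integrins and Col4a3bp with the collagens, and none of these was called. Some items are not reported here. The members and lists were chosen with earlier results of these data known.

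Alternatives were other scalings and filters, DESeq2 1.42.0, limma-voom (limma 3.58.1), a test against a 1.5-fold change, fewer groups, a replicate block, unrounded counts and leaving out each library.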

Additional observations from a re-analysis of the deposited data

How the results depend on the processing

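No named gene changed direction under the 19 alternatives, and 248 of 379 named calls were kept under all of them. Apart from genes named whatever their result, named genes were picked in these same libraries for groups that do not overlap. That left little room for a change of direction, so its absence is no test of the calls. Calls between the triple knockdown and shControl (3243) were 3179 to 3457 with other scalings, filters, DESeq2, limma-voom or unrounded counts. Library totals in place of TMM factors made 42.1% of the calls higher, against 49.2%, with a median shift of -0.068. A test against a 1.5-fold change called 1290 (623 higher, 667 lower), and 1041 against shNkx2-1 (404 and 637). A fit of the 2 compared groups alone called 5607 (2786 and 2821), and 4518 against shNkx2-1 (2182 and 2336). A fit without the Tmet group called 5424 (2691 and 2733), and 4958 against shNkx2-1 (2451 and 2507). Leaving out 1 library gave 1248 to 5459 calls (559 to 2721 higher, 689 to 2738 lower), and 1024 to 4994 against shNkx2-1 (393 to 2474 and 616 to 2523). The fewest against shControl came without shControl replicate 1 and the most without Tmet replicate 1. Where 1 library is left in a group, it is assumed to vary like the others.

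With the replicate number as a block 2951 genes were called (1454 higher, 1497 lower), 2848 of them shared, and 2389 against shNkx2-1. Deviations of same-numbered libraries correlated at 0.271 between shControl and the triple knockdown and 0.374 between shNkx2-1 and the triple knockdown; with 2 pairs and no label that ties them, the libraries share only a number. Of the named calls 11 were lost under the block.

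The balance of rises and falls turned under at least 1 alternative in 13 of 73 lists, among them EMT factors, potassium channels, integrins, epithelial adhesion, prostaglandins, solute carriers and alveolar type 2 markers. The duplicates limit precision, most for genes near the floor of 3 counts. Since fits without Tmet called more genes, a gene short of the threshold is not shown to be unchanged.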
